A study of Rattus norvegicus with 8 samples.

Results

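NADPH oxidases are membrane enzymes that move electrons from NADPH to oxygen and release superoxide or hydrogen peroxide. The genes described here code for the catalytic subunits Nox1, Nox4 and Cybb (the phagocyte subunit, also called gp91phox), for Cyba (p22phox, the membrane partner that the catalytic subunits share), for the cytosolic subunits Ncf1 and Ncf4 of the phagocyte oxidase, and for the small GTPases Rac1 and Rac2, which switch it on. The members were chosen by symbol, and all 8 had exactly 1 row among the 27742 rows of the gene table. They were compared between the thoracic aortas of nitroglycerin-treated and vehicle-treated rats.

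As background, vascular smooth muscle and endothelium are known to use Nox4 and Nox1, while Cybb, Ncf1, Ncf4 and Rac2 are best known from phagocytes and other blood-derived cells. Nox4 needs Cyba but is known to be active without the cytosolic subunits, whereas the enzymes built on Cybb and Nox1 need an organiser, an activator and Rac. Superoxide reacts with nitric oxide, and oxidants from these enzymes have long been studied in nitrate tolerance, the loss of the vasodilator response to organic nitrates.

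All libraries came from the thoracic aorta of wild-type male Sprague Dawley rats, labelled as 12 weeks old with a body weight of 180 to 200 g. The nitroglycerin group (4 libraries) received nitroglycerin (GTN), an organic nitrate, subcutaneously at 100 mg/kg, 3 times daily over 3 days, and the control group (4 libraries) received the ethanol vehicle. Nothing in the labels ties a library to a rat of its own, and p-values therefore measure the spread between these libraries, which may be partly technical. RNA depleted of ribosomal RNA was sequenced, and the authors deposited FPKM, fragments scaled by transcript length and by the fragments of the library, which is a relative unit.

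The smooth muscle markers Acta2 (1762 to 2401 FPKM in controls, 1061 to 2359 with nitroglycerin) and Myh11 (142 to 169 and 108 to 159 FPKM) were abundant, which matches the labelled tissue. Aligned sequence was 7.48 to 8.86 Gb in control and 6.77 to 8.39 Gb in nitroglycerin libraries. Most genes had higher values with nitroglycerin: the log2 difference was above 0 for 86.6% of the 12977 genes tested, with a median of 0.30, so the differences of the members and named regulators are also given after median-of-ratios rescaling of the libraries, where 52.4% were above 0 and the median was 0.01. In bulk tissue, fewer cells of a type and less RNA per cell cannot be told apart.

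Upstream sequences show how unlike these genes are at their starts, and those of the catalytic subunit with the largest difference (Nox4), of the shared partner (Cyba) and of the phagocyte subunit (Cybb) are printed. They were read from RefSeq (build GRCr8), 5′ to 3′ on each gene's strand, from 250 bases before the transcript start used there up to the outermost annotated start of the gene. Capitals mark CCAAT and GAGGAA, the latter a core of sites for PU.1 (gene Spi1), a transcription factor of myeloid cells.
Nox4 (chr1:150313639-150313735, plus strand): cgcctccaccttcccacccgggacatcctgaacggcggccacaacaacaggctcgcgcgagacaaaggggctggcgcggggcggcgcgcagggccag
Cyba (chr19:67404215-67404464, minus strand): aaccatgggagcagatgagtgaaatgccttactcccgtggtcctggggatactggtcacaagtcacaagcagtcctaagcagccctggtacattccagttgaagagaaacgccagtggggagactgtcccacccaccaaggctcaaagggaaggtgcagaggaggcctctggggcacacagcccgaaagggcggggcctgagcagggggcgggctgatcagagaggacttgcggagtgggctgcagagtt
Cybb (chrX:16065066-16065315, minus strand): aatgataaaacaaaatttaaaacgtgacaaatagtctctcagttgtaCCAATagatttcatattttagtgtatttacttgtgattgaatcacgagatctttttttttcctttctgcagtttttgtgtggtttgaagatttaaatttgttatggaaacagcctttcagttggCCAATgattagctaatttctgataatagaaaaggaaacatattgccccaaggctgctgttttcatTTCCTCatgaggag

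Over the full 250 bases before the transcript start, the Nox4 sequence was 72.8% G or C and held 23 CG pairs, the Cyba sequence 59.6% with 6, and the Cybb sequence 32.0% with 2. Of all 33469 RefSeq windows of that length (median 51.2%), 94.7% had a lower share than Nox4 and 2.88% a lower share than Cybb. Searched on both strands, CCAAT occurred at 2 places before Cybb and at none before Nox4 or Cyba, while 34.0% of all windows held it. GAGGAA occurred at 1 place before Cybb, on the opposite strand and ending 8 bases before the start, and at none before Nox4 or Cyba, while 23.3% of all windows held it. TGACNNNGC, a core of the antioxidant response element bound by Nrf2, was in none of these 3 windows and in 10.1% of all. Of the 8 genes, 5 had such a window. In the others, the Nox1 window held 1 GAGGAA match and the Ncf1 window 1 TGACNNNGC match. A match is a run of letters and not a measured binding site.

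Because FPKM is scaled by length, the levels of the genes could be ordered within each group. In controls Rac1 was highest, at 17.7 ± 12.0 FPKM (mean ± SD, n = 4), followed by Cyba at 6.10 ± 1.86, Cybb at 2.34 ± 1.28 and Rac2 at 1.48 ± 0.396 FPKM. Ncf1 (0.769 ± 0.192 FPKM), Nox4 (0.658 ± 0.314) and Ncf4 (0.494 ± 0.160) came next, and Nox1 was lowest at 0.129 ± 0.0604 FPKM. The ranges of neighbours overlapped for Cybb and Rac2, for Ncf1 and Nox4 and for Nox4 and Ncf4, so those orders were within the spread of the libraries. With nitroglycerin the order was Rac1, Cyba, Cybb, Rac2, Nox4, Ncf4, Ncf1 and Nox1. There the ranges overlapped for Rac2 and Nox4 and for Ncf4 and Ncf1, and Nox4 stood above Ncf4 and Ncf1 in all 4 libraries.

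**Figure D1:**
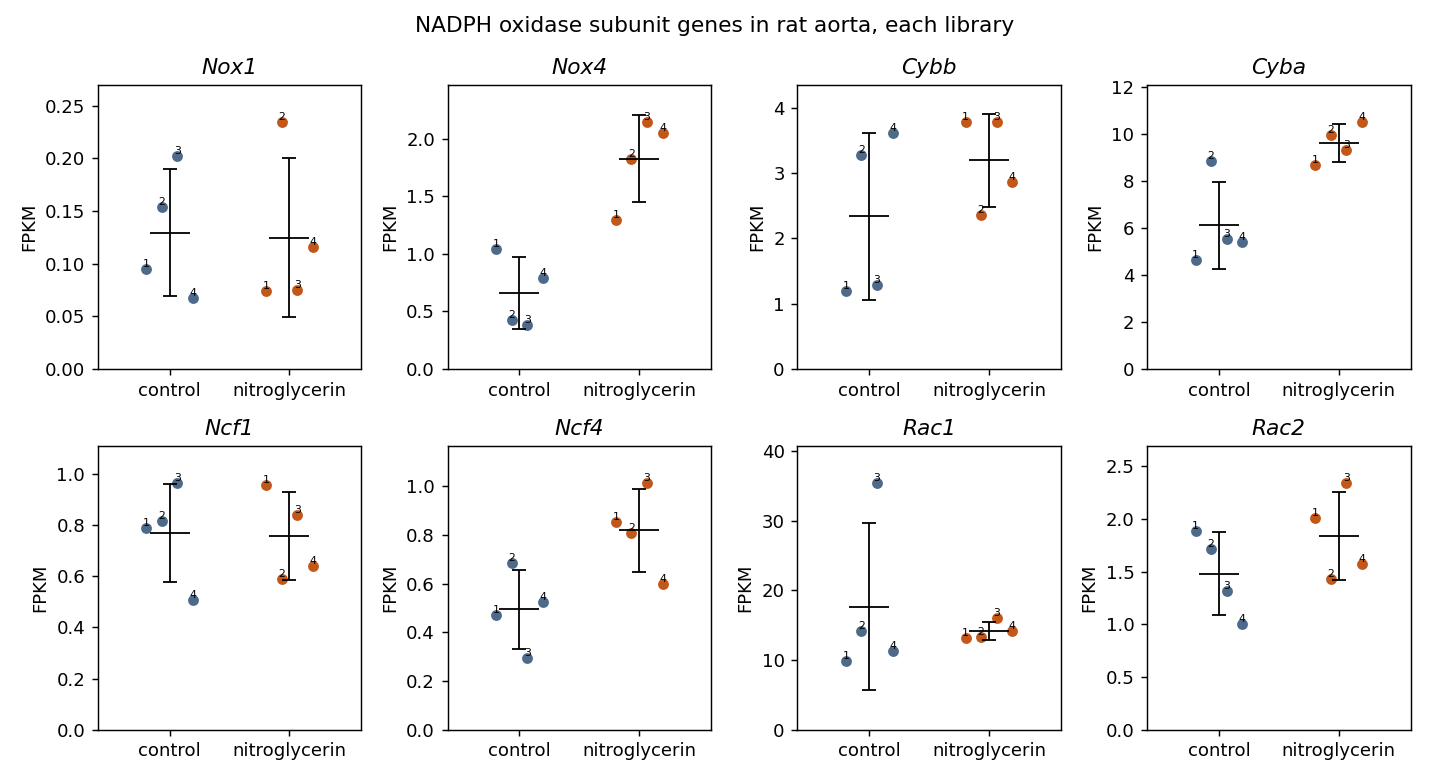
FPKM of the 8 genes (y axis, linear from 0, a scale of its own for each gene) in each control (blue) and nitroglycerin (orange) library; numbers are replicate numbers, and bars are the mean ± SD of 4 libraries. The groups are separate for Nox4, meet closely for Cyba, where control replicate 2 lies within the nitroglycerin range, and overlap for the others, and control replicate 3 stands apart for Rac1.

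None of the 8 genes passed the test across all genes, a limma fit on log2(FPKM + 1) in which a gene was called when its Benjamini-Hochberg adjusted p was under 0.05. Of 12977 genes tested, 1.29% were called higher and 0.0616% lower, and after rescaling 0.0308% and 0.1%. Nox1, Ncf1 and Ncf4 were under the filter of at least 1 FPKM in at least 4 libraries, which left 5 members in the fit. Of these 5, Nox4 and Cyba were higher at an unadjusted p under 0.05, as were 34.1% of all genes, and after rescaling Nox4 was, as were 5.5% of all genes. The median log2 difference of the 5 was 0.40 as deposited (0.30 over all genes) and 0.13 after rescaling (0.01 over all genes).

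Nox4, the catalytic subunit that makes mainly hydrogen peroxide and is abundant in vascular smooth muscle, had the largest difference among the members. Its control libraries read 1.04, 0.422, 0.381 and 0.791 FPKM and its nitroglycerin libraries 1.298, 1.82, 2.15 and 2.05 FPKM. Every nitroglycerin library lay above every control library, as for 24.2% of all genes tested, and the means were 0.658 ± 0.314 and 1.83 ± 0.379 FPKM, a ratio of 2.78. The log2 difference of FPKM + 1 was 0.78 (SE 0.19, 95% interval 0.36 to 1.20), which is 0.48 above the median gene and understates the change of a gene at this level, and it missed the threshold (limma adjusted p = 0.0589). Only 1 control library but all 4 nitroglycerin libraries reached 1 FPKM, so the gene entered the fit through the group in which it was higher.

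Nox4 depended on the scale and on which rows were tested. After rescaling, control replicate 1 (1.40) lay above nitroglycerin replicate 1 (1.12) while the other nitroglycerin libraries (1.68 to 1.81) lay above all controls, so the groups overlapped; groups without overlap, higher with nitroglycerin, were seen in 3.78% of all genes. The rescaled log2 difference was 0.56 (SE 0.20, 95% interval 0.10 to 1.02, limma adjusted p = 0.323), and 3.25% of all genes had a larger one. When the 10104 rows with an annotated transcript were tested alone, the same values as deposited gave a limma adjusted p of 0.0432. Over the alternatives that changed 1 choice, the limma adjusted p of Nox4 ran from 0.0432 to 0.361 and its log2 difference from 0.53 to 1.42, the highest with a pseudocount of 0.1. With rescaling and 1 library left out together, an alternative chosen after seeing the data, the log2 difference ran from 0.47 to 0.72 and the limma adjusted p from 0.255 to 0.520.

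Cyba, the membrane partner that stabilises Nox1, Cybb and Nox4, had the next largest log2 difference as deposited among the 5 in the fit. Its control libraries read 4.64, 8.82, 5.51 and 5.42 FPKM and its nitroglycerin libraries 8.67, 9.96, 9.30 and 10.5 FPKM. Control replicate 2 was inside the nitroglycerin range and the other 3 controls were well below it. The means were 6.10 ± 1.86 and 9.61 ± 0.793 FPKM, and the log2 difference of FPKM + 1 was 0.61 (SE 0.17, 95% interval 0.21 to 1.01, limma adjusted p = 0.0691).

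This Cyba difference exceeded that of the median gene by 0.31, and on the rescaled values the difference was 0.27 (SE 0.13, 95% interval -0.032 to 0.57, limma adjusted p = 0.469). Without control replicate 2 the log2 difference as deposited was 0.78 and the gene passed (limma adjusted p = 0.0491), and with other libraries left out the adjusted p reached 0.156. In that control 4 fibroblast markers summed to 441 FPKM, against 191 to 226 in the other controls and 256 to 340 with nitroglycerin. Lum gave 273 FPKM of that sum, against 100 to 116 in the other controls. Dcn and Dpt were also highest of the controls there, but Pi16 was not (20.7, against 24.6 FPKM in control replicate 1). Whether the sum bears on Cyba was not tested.

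Cybb, the superoxide-making subunit of phagocytes, read 1.19, 3.27, 1.28 and 3.61 FPKM in controls and 3.78, 2.35, 3.78 and 2.86 FPKM with nitroglycerin. The controls fell into a low pair (replicates 1 and 3) and a high pair (replicates 2 and 4), and the high pair lay inside the nitroglycerin range. The means were 2.34 ± 1.28 and 3.19 ± 0.709 FPKM, and the log2 difference of 0.40 had a 95% interval from -0.21 to 1.01 (limma adjusted p = 0.300). After rescaling it was 0.13 (95% interval -0.44 to 0.70, limma adjusted p = 0.879), and both intervals cover a fall as well as a rise.

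Nox1, the catalytic subunit inducible in smooth muscle, was near the floor of the table. It read 0.0945, 0.154, 0.202 and 0.0671 FPKM in controls and 0.0735, 0.234, 0.0749 and 0.116 FPKM with nitroglycerin. The groups overlapped, and a two-sided exact permutation test of log2(FPKM + 1) gave p = 0.943 as deposited and 0.429 after rescaling (n = 4 per group; log2 differences -0.0066 and -0.044).

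Ncf1 (p47phox), the organiser that carries the cytosolic subunits to the membrane, read 0.788, 0.818, 0.966 and 0.506 FPKM in controls and 0.958, 0.589, 0.838 and 0.642 FPKM with nitroglycerin. As deposited its nitroglycerin libraries all lay inside the control range, a log2 difference of -0.0087 (exact permutation test, two-sided, p = 0.943 with n = 4 per group). After rescaling, nitroglycerin replicates 2 and 4 (0.552 and 0.527) lay below the lowest control (0.560), and the log2 difference was -0.18 (exact permutation p = 0.143). Ncf4 (p40phox), which binds a membrane lipid and supports the assembled enzyme, read 0.472, 0.685, 0.295 and 0.522 FPKM in controls and 0.853, 0.806, 1.01 and 0.599 FPKM with nitroglycerin. All but nitroglycerin replicate 4 lay above every control. The means of Ncf4 were 0.494 ± 0.160 and 0.818 ± 0.171 FPKM (exact permutation test, two-sided, p = 0.0571 with n = 4 per group, where 0.0286 is the smallest possible), and after rescaling the exact permutation p was 0.229. These 3 exact tests of members under the filter were not adjusted for one another.

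Rac1, the GTPase found in most cell types, read 9.82, 14.1, 35.5 and 11.4 FPKM in controls and 13.1, 13.3, 16.0 and 14.2 FPKM with nitroglycerin. Control replicate 3 was far above every other library, and the direction of the group difference as deposited rested on it. The log2 difference was -0.12 (95% interval -0.90 to 0.65, limma adjusted p = 0.799) with that library and 0.26 without it (limma adjusted p = 0.290). The row holds 4 annotated transcripts, whose separate values were not analysed here. After rescaling, with all libraries, the difference was -0.49 (95% interval -1.24 to 0.27, limma adjusted p = 0.599), and with rescaling and any 1 library left out it ran from -0.64 to -0.12.

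Rac2, the GTPase of blood-derived cells, read 1.88, 1.72, 1.32 and 1.00 FPKM in controls and 2.01, 1.43, 2.34 and 1.58 FPKM with nitroglycerin. Its groups overlapped, with a log2 difference of 0.20 as deposited (95% interval -0.17 to 0.57, limma adjusted p = 0.388) and -0.048 after rescaling (95% interval -0.45 to 0.35, limma adjusted p = 0.945). The direction of Rac2 therefore depended on the scaling.

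**Figure D2:**
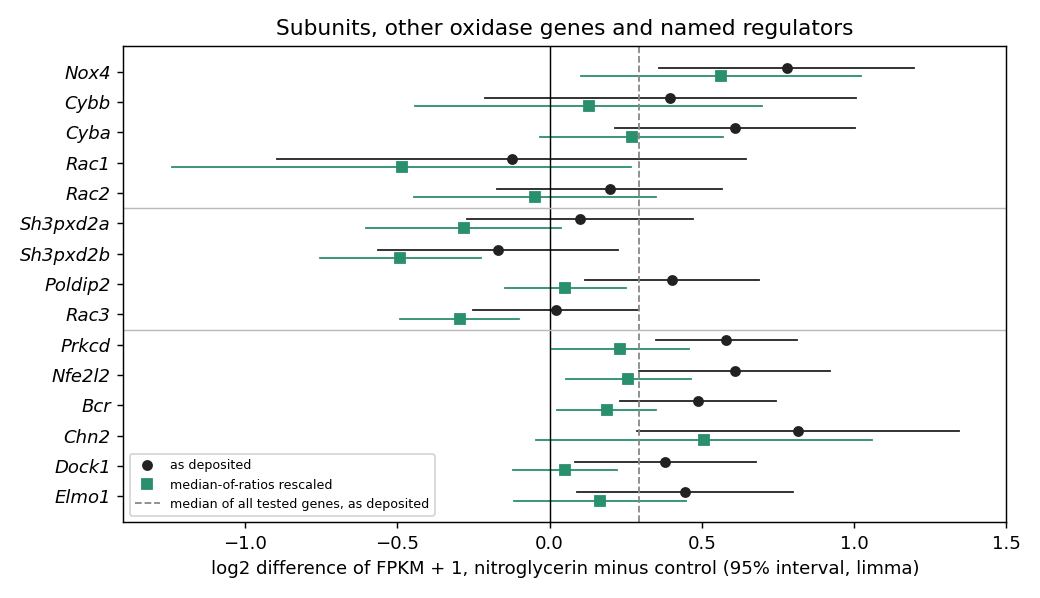
Log2 difference of FPKM + 1 (x axis, nitroglycerin minus control) for the 5 members in the fit, 4 other oxidase genes and 6 regulators, as deposited (black circles) and rescaled (green squares); lines are 95% intervals from limma and the dashed line is the median of all genes tested as deposited (0.30). Nox4, Cyba, Cybb, Poldip2 and all 6 regulators lie to the right of 0 on both scales. The 6 regulators were chosen from these same data by call and lowest p, which largely fixes their side as deposited. Of all 24 regulators tested, 19 lay above 0 as deposited (86.6% of all genes did) and 11 after rescaling (52.4% did). The intervals of Nox4, Prkcd, Nfe2l2 and Bcr exclude 0 on both scales. Rac2, Sh3pxd2a and Rac3 cross 0 with the scaling, and Rac1 has the widest interval.

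Ratios between subunits within a library do not depend on the scaling of libraries, and the log2 of 5 such ratios was tested by exact permutation, two-sided (n = 4 per group, smallest possible p 0.0286). The Nox4 to Cyba ratio was 0.224, 0.0478, 0.0691 and 0.146 in controls and 0.150, 0.183, 0.231 and 0.195 with nitroglycerin. Control replicate 1 lay within the nitroglycerin range, and the other 3 controls lay below all of them. The log2 difference of this ratio was 0.88 (exact permutation p = 0.171, Benjamini-Hochberg over the 5 ratios 0.857). Without control replicate 1 it was 1.26. The groups then no longer overlapped, which fixes the exact permutation p at its smallest possible value (0.0286, 3 against 4 libraries). With any other library left out, the difference ran from 0.51 to 1.05 and the exact permutation p from 0.171 to 0.314.

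The Cybb to Cyba ratio was 0.381 ± 0.1996 in controls and 0.338 ± 0.0982 with nitroglycerin (exact permutation p = 0.971, n = 4 per group), with overlapping ranges for this membrane pair of the phagocyte enzyme. The Ncf1 to Cybb ratio was 0.664, 0.250, 0.751 and 0.140 in controls and 0.253, 0.250, 0.222 and 0.224 with nitroglycerin. The 4 nitroglycerin libraries lay within a narrow band inside the control range (exact permutation p = 0.371). The Ncf4 to Cybb ratio was 0.245 ± 0.108 and 0.261 ± 0.0595 (exact permutation p = 0.686, n = 4 per group). The Rac2 to Rac1 ratio was 0.110 ± 0.0648 and 0.130 ± 0.0236 (exact permutation p = 0.543, n = 4 per group), with the lowest value, 0.0372, in control replicate 3. None of these 5 ratios passed, and the adjusted values ran from 0.857 to 0.971; with 5 ratios, a single one at the smallest possible p would have had an adjusted value of 0.143, so no ratio could have passed alone.

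**Figure D3:**
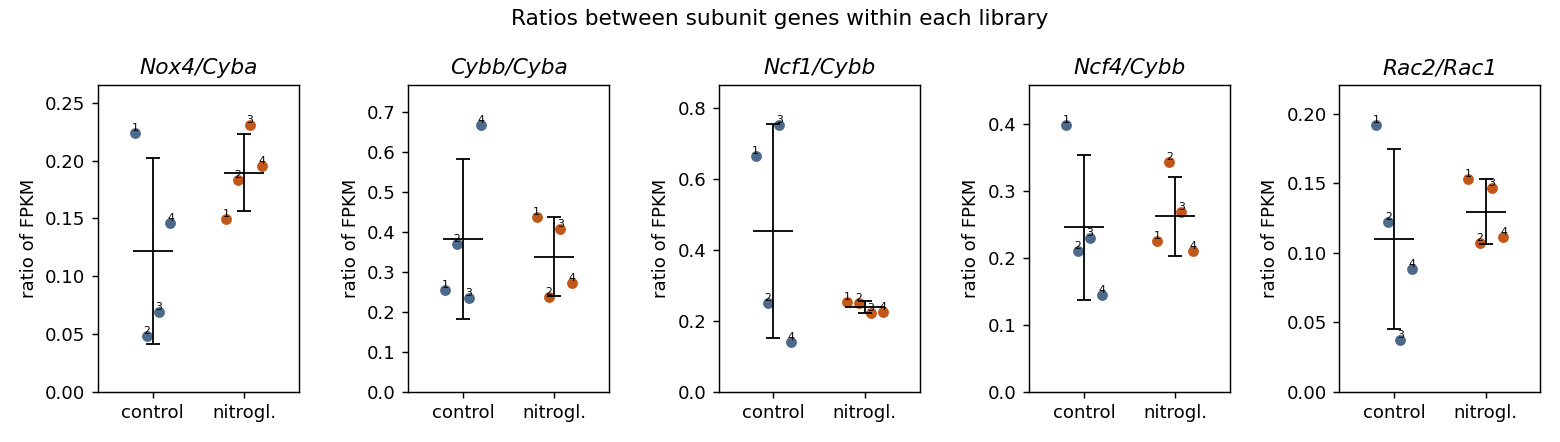
Ratio of FPKM between pairs of subunit genes (y axis, linear from 0) in each control (blue) and nitroglycerin (orange) library; numbers are replicate numbers, and bars are the mean ± SD of 4 libraries. The groups overlap in all 5 panels, and the nitroglycerin libraries of the Ncf1 to Cybb ratio sit between 0.222 and 0.253, inside the wider spread of controls (0.140 to 0.751).

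Other genes of the oxidase family gave little to set beside the members. Of 13 listed, 11 had a row (Nox3 and Cybc1 were not analysed here) and 4 passed the filter. None of the 4 passed over all genes on either scale, with a median log2 difference of 0.060 on the deposited and -0.29 on the rescaled values. Poldip2, a protein that binds p22phox and is known to raise Nox4 activity in smooth muscle, read 7.06, 8.46, 7.73 and 8.83 FPKM in controls and 11.5, 9.19, 10.8 and 12.3 FPKM with nitroglycerin. Its groups did not overlap as deposited, as for 24.2% of all genes (log2 difference 0.40, limma adjusted p = 0.0785), but they did after rescaling, where the difference was 0.052 (limma adjusted p = 0.852).

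Sh3pxd2a (Tks5), an organiser related to p47phox, had the highest level of these genes, at 50.8 ± 8.75 and 54.1 ± 5.94 FPKM, with a log2 difference of 0.10 that became -0.28 on rescaling (limma adjusted p = 0.669 and 0.474). Its relative Sh3pxd2b (Tks4) stood at 5.45 ± 1.39 and 4.68 ± 0.787 FPKM. The GTPase gene Rac3 stood at 4.47 ± 0.546 and 4.55 ± 0.539 FPKM. After rescaling Sh3pxd2b and Rac3 were lower at an unadjusted p under 0.05, as were 6.44% of all genes, and every nitroglycerin library lay below every control, as for 4.45% of all genes. Their rescaled log2 differences were -0.49 and -0.30 (limma adjusted p = 0.169 and 0.238).

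The remaining 7 stayed under 1 FPKM in every library. The organiser Noxo1 and the activator Noxa1, partners of Nox1, reached at most 0.0697 and 0.0275 FPKM, and Noxa1 was listed at 0 in 7 of 8 libraries. The dual oxidases Duox1 (0.0749 ± 0.0547 and 0.126 ± 0.0559 FPKM) and Duox2 (0.0764 ± 0.0360 and 0.143 ± 0.0562) and their maturation factors Duoxa1 (0.300 ± 0.163 and 0.248 ± 0.0722) and Duoxa2 (0.0789 ± 0.0952 and 0.0326 ± 0.0431) had overlapping groups.

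Of 35 upstream regulators of Rac and of oxidase assembly, 24 passed the filter, 1 was called higher (1.29% of all genes were) and 0 lower as deposited, and none was called after rescaling. At an unadjusted p under 0.05, limma gave 12 higher and 0 lower as deposited and 3 higher and 2 lower after rescaling, with medians of 0.26 and -0.077. Over all genes the shares were 34.1% higher as deposited, and 5.5% higher and 6.44% lower after rescaling. The gene called was Prkcd, protein kinase C delta, one of the kinases that phosphorylate p47phox. It rose from 6.47, 7.36, 6.49 and 7.03 FPKM in controls to 10.9, 11.2, 10.8 and 9.97 FPKM with nitroglycerin. The groups did not overlap as deposited, as for 24.2% of all genes (log2 difference 0.58, SE 0.10, limma adjusted p = 0.0492). After rescaling they overlapped and the difference was 0.23 (limma adjusted p = 0.401). Its limma adjusted p exceeded 0.05 in each fit that left out 1 library, from 0.0512 without nitroglycerin replicate 2 to 0.136 without nitroglycerin replicate 1, while the log2 difference stayed between 0.56 and 0.61.

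Nfe2l2 (Nrf2), the transcription factor of the antioxidant response, stood at 7.23 ± 0.942 and 11.6 ± 1.59 FPKM, and its groups did not overlap on either scale, as for 24.2% of all genes as deposited and 3.78% after rescaling. Its log2 difference was 0.61 as deposited (limma adjusted p = 0.0581) and 0.26 after rescaling (limma adjusted p = 0.311). It passed in 3 of 17 alternatives, and over all of them the limma adjusted p ran from 0.0427 to 0.311. Bcr and Chn2, which lower the active form of Rac, stood at 2.81 ± 0.426 and 4.32 ± 0.267 FPKM and at 2.73 ± 1.02 and 5.54 ± 1.79 FPKM (adjusted p from limma, 0.0583 and 0.0685). The Bcr row used, of 3 rows with that symbol, held no annotated transcript. Dock1 and Elmo1, which together load Rac with GTP, stood at 4.88 ± 0.839 and 6.61 ± 0.629 FPKM and at 2.15 ± 0.596 and 3.27 ± 0.584 FPKM (limma adjusted p = 0.0914 and 0.0932). For these 4 genes the rescaled differences were 0.19, 0.51, 0.051 and 0.17 (limma adjusted p from 0.352 to 0.829).

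Cybb, Ncf1, Ncf4 and Rac2 are genes of blood-derived cells, and markers of those cells were measured beside them. Of 12 leukocyte and macrophage markers, 9 had a row and all 9 passed the filter (Cd68, Itgam and Fcer1g were not analysed here). Their summed level was 21.1 to 27.2 FPKM in controls and 27.7 to 42.6 FPKM with nitroglycerin, without overlap as deposited. Of single genes, 24.2% had every nitroglycerin library above every control as deposited. After rescaling the sums were 23.2 to 28.7 and 24.8 to 35.8, and they overlapped. Cd163, the haemoglobin scavenger receptor of macrophages, was the only one of the 9 called by limma as deposited (1.29% of all genes were called higher). It stood at 1.91 ± 0.194 and 4.92 ± 1.48 FPKM. Its groups did not overlap on either scale, as for 24.2% of all genes as deposited and 3.78% after rescaling. The log2 difference of Cd163 was 0.99 (limma adjusted p = 0.0492). After rescaling it was 0.70 (limma adjusted p = 0.160), and none of the 9 was called there. As deposited all 9 had a difference above 0, as did 86.6% of all genes. After rescaling 4 of the 9 did, against 52.4% of all genes. Tyrobp (3.26 ± 0.481 and 5.08 ± 0.605 FPKM) and Cd14 (3.94 ± 1.155 and 6.03 ± 1.22 FPKM) had rescaled differences of 0.20 each (limma adjusted p = 0.641 and 0.682). Of the others, Ptprc stood at 0.839 ± 0.194 and 1.01 ± 0.184 FPKM, Itgb2 at 0.958 ± 0.123 and 1.11 ± 0.218, and Csf1r at 6.58 ± 0.776 and 8.44 ± 1.96 FPKM, with rescaled differences of -0.055, -0.092 and -0.044. As deposited the marker sum, Rac2 and Ncf4 were highest in nitroglycerin replicate 3, Cybb in nitroglycerin replicate 1 and Ncf1 in control replicate 3. After rescaling Rac2 was highest in control replicate 1 (2.54) and Cybb in control replicate 4 (3.99). The part of leukocyte content in the values of these subunits was not tested.

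Neutrophil and lymphocyte markers were near 0. Of 4 neutrophil markers none reached 1 FPKM, S100a9 and Elane were listed at 0 in all controls, and the summed level was at most 0.234 FPKM in controls and 1.14 with nitroglycerin, the latter in replicate 1. Of 3 lymphocyte markers with a row (Ms4a1 was not analysed here), the summed level was at most 0.112 FPKM in controls and 0.359 with nitroglycerin, and Cd3d was listed at 0 in all controls. Fat markers marked out nitroglycerin replicate 1, where the 5 adipocyte markers summed to 58.0 FPKM against 2.52 to 5.88 in the other nitroglycerin libraries and 0.722 to 9.90 in controls. Nox4 was lowest of its group in that library, and without it the log2 difference of Nox4 was 0.88, against 0.78 with all libraries and 0.70 to 0.88 with any other library left out. The 4 endothelial markers with a row summed to 21.1 to 44.2 FPKM in controls and 39.9 to 47.2 with nitroglycerin. The most abundant of them, Vwf, carried much of this sum. In control replicate 4, which had the lowest sum, Vwf read 11.2 FPKM, against 24.7 to 33.2 in the other controls.

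Markers of the vessel wall were also compared between the groups. Of the 4 endothelial markers, Esam was called higher as deposited (3.90 ± 0.282 and 8.23 ± 1.51 FPKM, limma adjusted p = 0.0413), as were 1.29% of all genes. It was not called after rescaling (log2 differences 0.90 and 0.57). Tek stood at 4.51 ± 1.27 and 8.22 ± 0.535 FPKM (log2 differences 0.77 and 0.44, limma adjusted p = 0.0535 and 0.260). Its groups did not overlap on either scale, as for 24.2% of all genes as deposited and 3.78% after rescaling. Cdh5 stood at 2.88 ± 0.685 and 4.51 ± 1.22 FPKM, and Vwf, the most abundant, at 23.6 ± 9.12 and 23.6 ± 3.61 FPKM. Of 5 smooth muscle markers none was called on either scale, with medians of -0.23 on the deposited and -0.62 on the rescaled values. Acta2 (2075 ± 270.3 and 1602 ± 585 FPKM), Myh11 (151 ± 12.7 and 130 ± 21.5) and Cnn1 (88.8 ± 15.7 and 56.3 ± 26.0) had rescaled differences of -0.82, -0.62 and -1.12, each at an unadjusted p under 0.05, as were 6.44% of all genes in that direction. Lmod1 went the other way, at 10.4 ± 1.12 and 19.1 ± 4.75 FPKM (rescaled difference 0.43). It too had an unadjusted p under 0.05, as had 5.5% of all genes in that direction. Smtn stood at 21.0 ± 1.72 and 25.3 ± 4.77 FPKM (log2 differences 0.25 as deposited and -0.13 rescaled). As deposited only Cnn1, lower, and Lmod1, higher, were at an unadjusted p under 0.05. The part of these markers in the values of Nox4 and Cyba was not tested.

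**Figure D4:**
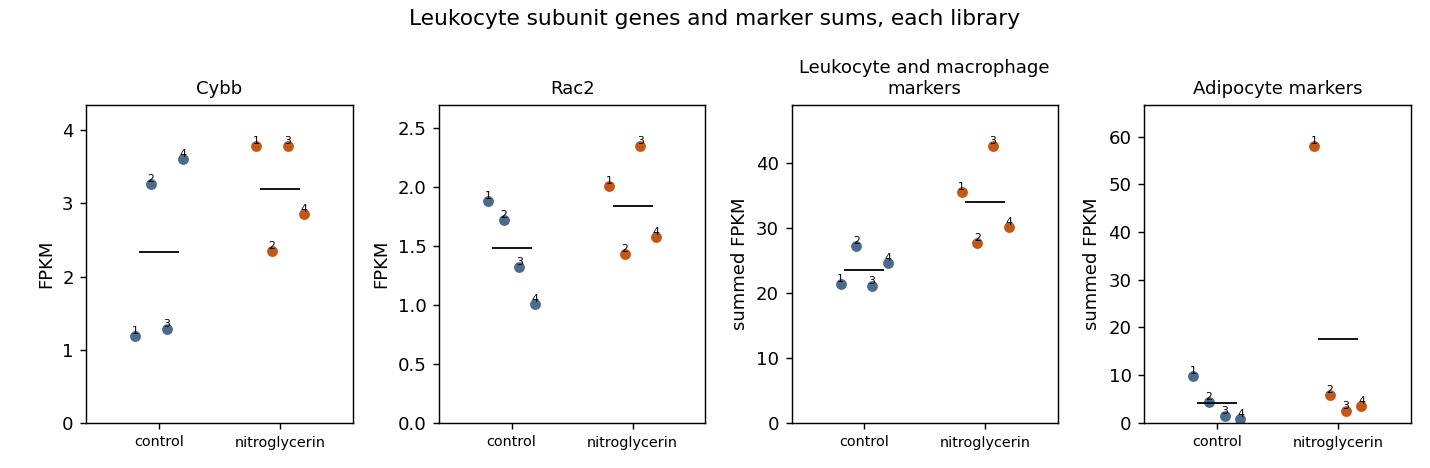
FPKM of Cybb and Rac2 and the summed FPKM of 9 leukocyte and macrophage markers and of 5 adipocyte markers (y axes, linear from 0) in each control (blue) and nitroglycerin (orange) library; numbers are replicate numbers and horizontal ticks are group means. As deposited, the leukocyte sum is highest in nitroglycerin replicate 3 (42.6), where Rac2 is also highest, though not after rescaling, and the adipocyte sum stands apart in nitroglycerin replicate 1 (58.0).

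For each member in the fit, the 2 annotated genes of 10104 with the most similar profile over the 8 libraries were found by the root-mean-square difference of mean-centred log2 values. Nox4 was nearest to Bmp6 (0.12) and Frzb (0.13), against a root-mean-square deviation of 0.44 of Nox4 from its own mean. Cyba was nearest to Zbtb4 (0.087) and LOC108348154 (0.11), and Cybb to Rwdd1 (0.12) and Asxl1 (0.14). Rac2 was nearest to Tnfsf13 (0.073) and Neu1 (0.086), and Rac1, with its single high control, to Akirin2 (0.21) and AABR07029863.3 (0.23). These neighbours are a description only. None of the 4686 transcripts in the deposited lncRNA table carried the symbol of a member or of another oxidase gene.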

How the data were processed

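The authors deposited FPKM per gene for 8 libraries of rat aorta, and FPKM with coverage per base (a signal) for predicted lncRNAs, per the file headers. Bowtie 0.12.2, HISAT2 2.0 and StringTie 1.3.0 are listed without roles, as are the builds Rnor_6.0 and mm8, per the submitters' processing notes. Coverage divided by FPKM was constant within a library and was read as aligned gigabases, so reads per gene are unknown and no counting intervals were computed. FPKM is relative: a gene that takes more of a library lowers the others.

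Rows were taken by symbol (highest mean where several). Rows reaching 1 FPKM in 4 or more libraries were tested as log2(FPKM + 1) by limma 3.58.1 (R 4.3.3, mean-variance trend, Benjamini-Hochberg over 12977 rows, adjusted p under 0.05). A filter that looks at all libraries admits genes high in 1 group. Rescaling divided libraries by median-of-ratios factors of 0.742 to 0.996 (controls) and 1.07 to 1.22 (nitroglycerin). Members under the filter and ratios were tested by two-sided exact permutation over 70 arrangements. The steps were tested on simulated data. Plots used matplotlib 3.10.9 in Python 3.11.15.

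Named genes were the members, the measured other oxidase genes (1 is not reported here), 6 regulators (those that passed first, then lowest p), leukocyte markers as values, and 2 profile neighbours per member; the other markers given by name were added after their values were seen. Members and lists were chosen with earlier results of these data known. Alternatives covered pseudocount, filter, scaling, annotated rows, robust variance, the replicate number as a block and each library left out.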

Additional observations from a re-analysis of the deposited data

Results flagged for a closer look

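In 60 groups of 4 libraries examined over the named genes and ratios, 3 (5%) held a library that stood apart, and chance flags about 1 in 20 groups. For Rac1, control replicate 3 stood at 35.5 FPKM and the remaining controls at 9.82 to 14.1. For Elmo1, control replicate 2 stood at 3.05 FPKM and the remaining controls at 1.85 to 1.86. Nitroglycerin replicate 1 had 0.0275 FPKM of Noxa1, which was listed at 0 in the other nitroglycerin libraries. No explanation was tested for these.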

How the results depend on the processing

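The number of genes called over the whole table depended on most choices, while at most 1 of the 8 members was called under any alternative tried. Nox1, Ncf1 and Ncf4 entered the limma fit only when the filter was dropped. With the filter of 5 FPKM, Cyba and Rac1 were the only members tested. Members left out of a fit could not be called in it. Against 175 genes as deposited (limma), a pseudocount of 0.1 gave 7, dropping the filter 26, a filter of 5 FPKM 384, median-of-ratios rescaling 17 (4 higher and 13 lower, against 167 and 8), quantile normalization 15 and annotated rows only 828. Factors from annotated rows, an alternative chosen after seeing the data, also gave 17. Leaving out 1 library gave 5 to 284. Of the members, none was called in the main test and 1 with annotated rows only (Nox4); leaving out 1 library gave 0 to 1, the 1 being Cyba without control replicate 2.

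With the replicate number as a block, limma called 0 genes (4037 at an unadjusted p under 0.05) and 0 members. The numbers are not known to pair rats: same-numbered deviations correlated at 0.133, -0.011, -0.012 and 0.121, and 4 of 8 libraries correlated best with their own number.

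Prkcd lost its call in 13 of 17 alternatives, all with a difference above 0. Rac2 turned from 0.20 to -0.048 (both rescalings) and -0.075 (quantile), Sh3pxd2a from 0.10 to -0.28 (both rescalings) and -0.10 (quantile), and Rac3 from 0.02 to -0.30 (both rescalings) and -0.29 (quantile). With a library left out, log2 differences ran from -0.052 to 0.024 for Nox1, -0.084 to 0.044 for Ncf1, -0.33 to 0.26 for Rac1 and -0.047 to 0.066 for Rac3. Those of the log2 ratios ran from 0.51 to 1.26 for Nox4 to Cyba, -0.28 to 0.22 for Cybb to Cyba and -0.060 to 0.43 for Ncf4 to Cybb. With rescaling and 1 library left out together, chosen after seeing the data, Cybb was -0.0010 without control replicate 1 and -0.037 without control replicate 3. With any other library left out Cybb was above 0, up to 0.31. Rac2 was -0.036, -0.087 and -0.16 without control replicates 2, 3 and 4 and -0.078, -0.0029 and -0.12 without nitroglycerin replicates 1, 2 and 3. It was above 0 without control replicate 1 (0.089) and without nitroglycerin replicate 4 (0.0059). The causes were not tested. Summing rows per symbol changed nothing, since each member had 1 row. Genes near or under 1 FPKM (Nox1, Nox4, Ncf1, Ncf4) are the least precisely measured, at a depth in reads that is unknown.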
